A study of Homo sapiens with 4 samples.

Results

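Actin filaments carry the shape, the contraction and the crawling of a cell, and the 41 genes described here encode actins, the proteins that cross-link and bundle their filaments, the myosin and tropomyosin that ride on them, and the proteins that turn them over or tie them to the membrane. They form a list of gene names with no threshold on a measured value, drawn up with earlier results of these data known, and every probe set whose annotation names exactly 1 of them was taken. Of the 41 genes, 38 had such a probe set, with 153 probe sets of 49395 on the array (1 to 10 a gene). FLNA, FLNC and TPM3 had none and were not analysed here. Each gene was read from its brightest probe set, and the other probe sets were set beside it.

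RNA came from MDA-MB-231, a human triple-negative breast cancer line of mesenchymal shape grown from a pleural effusion. A first group of 2 arrays held a stable line with an integrated control shRNA, and a second group of 2 arrays held a stable line with an integrated shRNA against ELK3, an ETS factor that binds DNA together with serum response factor (SRF). Both groups were made by retroviral transduction of the same luciferase- and GFP-marked parental cells, and a stable line with lowered ELK3 was obtained under puromycin. The labels call the arrays of a group biological repeats 1 and 2 (replicates 1 and 2 here) but do not say whether these are separate lines or cultures of 1 line, so the p-values cover the spread between these arrays alone, and the effect of the shRNA and a difference between selected lines cannot be told apart. An exact two-sided permutation test of 2 against 2 arrays cannot go below p = 0.33.

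Actin genes are a classic target of SRF. When free actin monomer runs low, the coactivators MRTFA and MRTFB leave it, enter the nucleus and bind SRF on a DNA element called the CArG box, and ETS factors of the ELK family compete with them for the same face of SRF. Many genes of the list, such as those for actins, calponins, transgelin and myosin light chains, are therefore read as the output of this switch in fibroblasts and smooth muscle cells.

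Values were log2 intensities with array medians of 6.23 to 6.27, and they ranged from 1.82 to 14.17. ELK3 read 10.85 and 10.82 in control and 8.34 and 8.33 with the shRNA, a log2 difference of -2.50 (standard error, SE, 0.07, adjusted p = 3.57e-05 from limma with Benjamini-Hochberg adjustment). All log2 differences are ELK3 KD minus control. A gene was called when its adjusted p from limma, over all 18132 genes, was under 0.05. The 95th percentile of 368 probe sets of olfactory receptor genes, 5.70, served as a guide to background. Markers of cell identity moved with the groups. All 9 markers of mesenchymal-like MDA-MB-231 cells were called lower, their mean log2 value being 12.02 and 11.99 in control against 7.39 and 7.26 in ELK3 KD arrays. The largest falls, between group means, were of NT5E (11.41 to 3.17) and AXL (11.97 to 4.23), both into the background range. Of 9 markers of the retrovirus packaging line HEK293, 6 were called higher and none lower (5.25 and 4.91 against 8.34 and 8.39). The largest rises were of UCHL1 (4.38 to 12.79) and NEFL (3.37 to 10.95). PAX2, NEFM and INA of that list were not called, with PAX2 at 4.48 to 4.69 on all arrays. Of 9 epithelial markers, 3 were called higher and 2 lower (7.58 and 7.43 against 7.14 and 7.10). The 2 that fell had the largest differences, EPCAM (8.50 to 3.44, into the background range) and CLDN4 (8.92 to 6.79). CDH1 was not called, at 4.04 to 4.36. For these lists the shares over all genes were 26.0% called higher and 23.5% lower. The part of these shifts in the differences of the actin genes was not tested.

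Most actin genes were lower in ELK3 KD cells. Of 38 measured genes, 25 were called lower, 7 were called higher and 6 did not pass the test, where over all genes 23.5% were called lower and 26.0% higher. The list was brighter than most genes, with a median level of 10.25 against 6.68 over all genes. Among the 1275 genes at or above the median level of the list, 31.1% were called lower and 30.3% higher. The median log2 difference of the 38 genes was -0.55, and that of all genes was -0.05. The arrays of the groups did not overlap for 27 genes that were lower and 8 that were higher, where over all genes these shares were 40.8% and 35.4%. More than 4-fold lower were LCP1, CAPG, TPM2 and CNN2, and more than 4-fold higher were ACTA2 and FSCN1, where over all genes 2.32% and 3.19% passed 4-fold in these directions. Leaving out 1 array cost calls in the list and over all genes, and the median log2 difference of the list was then -0.59 to -0.53. Of the 32 called genes, 23 kept the call whichever array was left out, among them all 20 with a difference of at least 1 on the log2 scale.

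**Figure D1:**
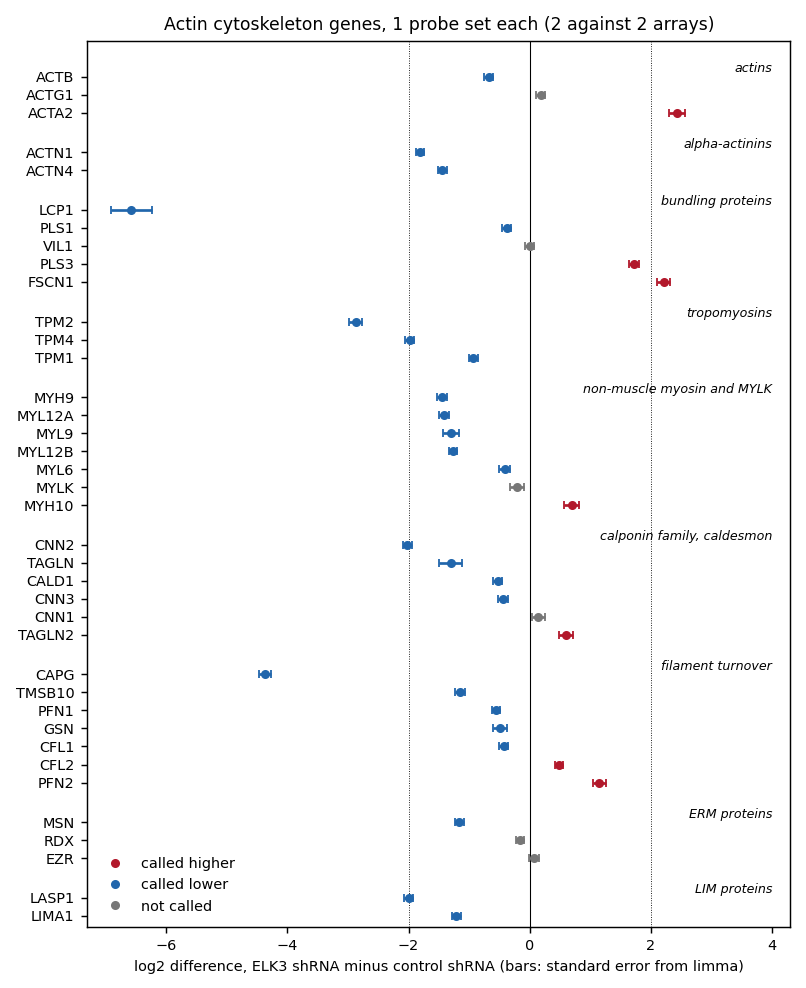
Log2 difference (ELK3 shRNA minus control shRNA, horizontal axis) of 38 actin cytoskeleton genes at their brightest probe sets, grouped by role; points are the differences of 2 against 2 arrays, bars the SEs from limma, and dotted lines mark 4-fold. LCP1 at -6.57 and CAPG at -4.37 lie farthest to the left, and FSCN1 at 2.21 and ACTA2 at 2.43 farthest to the right.

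The CArG box could be looked for in the promoters of part of the list. RefSeq windows of 300 bases on GRCh38.p14, from 250 bases before a transcription start to 50 after it, were at hand for 32 of the 38 genes, with 64 windows among them. Those of ACTB, TAGLN, MYL9, FSCN1, PFN2 and VIL1 were not used here. A CArG box stood in 1 window each of ACTG1, ACTN1, CNN2, MYLK and TPM4, which is 15.6% of 32 genes, where 1.60% of 27305 genes with windows have one. A gene with more windows has more places for a box. Counted by window, a box stood in 5 of 64, where 1.29% of all 35116 windows have one. CCGGAA, a strict form of the ETS motif searched on both strands, stood in a window of 6 of the 32 genes and of 20.1% of all genes. No window of the 32 genes held both CCGGAA and a CArG box. Looser forms such as GGAA were not searched, so this does not show that no ETS motif lies near a box. The 5 windows are shown because their 5 genes share the box and yet did not move as 1 group. Each is given from 200 bases before the start to 50 after it, 5′ to 3′ on the gene's own strand, with the CArG box in capitals.
ACTG1, chr17:81512750-81512999, minus strand: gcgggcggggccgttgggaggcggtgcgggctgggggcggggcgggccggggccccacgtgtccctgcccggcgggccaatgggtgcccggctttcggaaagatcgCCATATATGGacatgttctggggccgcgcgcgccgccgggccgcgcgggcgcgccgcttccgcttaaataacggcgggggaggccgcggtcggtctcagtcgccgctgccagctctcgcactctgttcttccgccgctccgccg
ACTN1, chr14:68977517-68977766, minus strand: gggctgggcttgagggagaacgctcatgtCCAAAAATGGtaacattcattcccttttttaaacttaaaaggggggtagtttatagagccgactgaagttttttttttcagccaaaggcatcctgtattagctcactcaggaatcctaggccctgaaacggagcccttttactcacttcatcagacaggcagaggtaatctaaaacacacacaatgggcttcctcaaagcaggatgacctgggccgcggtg
CNN2, chr19:1026408-1026657, plus strand: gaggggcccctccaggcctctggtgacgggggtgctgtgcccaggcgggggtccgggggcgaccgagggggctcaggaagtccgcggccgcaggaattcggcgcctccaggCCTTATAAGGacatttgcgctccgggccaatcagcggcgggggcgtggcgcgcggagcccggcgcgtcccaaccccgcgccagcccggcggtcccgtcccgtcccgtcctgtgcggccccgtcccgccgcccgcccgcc
MYLK, chr3:123620499-123620748, minus strand: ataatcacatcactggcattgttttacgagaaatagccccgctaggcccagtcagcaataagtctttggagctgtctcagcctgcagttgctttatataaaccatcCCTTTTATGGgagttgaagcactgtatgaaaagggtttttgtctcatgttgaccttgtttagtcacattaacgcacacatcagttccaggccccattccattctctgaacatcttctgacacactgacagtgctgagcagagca
TPM4, chr19:16067338-16067587, plus strand: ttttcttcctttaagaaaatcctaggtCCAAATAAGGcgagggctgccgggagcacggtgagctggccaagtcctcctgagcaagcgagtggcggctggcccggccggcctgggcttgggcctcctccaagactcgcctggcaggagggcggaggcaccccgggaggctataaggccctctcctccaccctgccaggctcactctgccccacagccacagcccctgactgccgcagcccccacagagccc
The boxes begin 94 bases before the start in ACTG1 and MYLK, 89 in CNN2, 171 in ACTN1 and 173 in TPM4. The ACTN1 window is 1 of 4 and the TPM4 window 1 of 3 of the gene, and which start the cells used is not known from the arrays. A match is a description of the letters and not evidence that SRF binds there. As given below, CNN2, TPM4 and ACTN1 had log2 differences of -2.02, -1.98 and -1.81, whereas ACTG1 and MYLK did not pass the test.

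Of the actins, beta-actin fell, gamma-actin did not pass the test and smooth muscle alpha-actin rose. ACTB, the beta form found at the moving edge of cells, read 13.59 and 13.52 in control against 12.86 and 12.88 in ELK3 KD arrays, a log2 difference of -0.68 (SE 0.07, adjusted p = 0.00149). All 3 of its probe sets were called lower, at -0.53 to -1.05. The array also carries control probe sets for the 5′, middle and 3′ parts of the ACTB transcript, and they read 13.39 and 13.37, 13.46 and 13.41, and 13.44 and 13.41 in control against 12.69 and 12.72, 12.82 and 12.81, and 12.68 and 12.65 in ELK3 KD arrays. Their 3′ minus 5′ difference was 0.05 and 0.03 in control against -0.01 and -0.07 in ELK3 KD arrays, so all parts of the transcript read lower. That of GAPDH was -0.14 and -0.13 against -0.18 and -0.19.
ACTG1, the gamma form, read 13.35 on both control arrays and 13.50 and 13.55 on the ELK3 KD arrays, so that the groups did not overlap, but the difference of 0.18 did not pass the test (adjusted p = 0.101). Of its 5 probe sets, at 0.18 to 0.28, 1 was called higher. The beta and gamma transcripts are close in sequence, and all probe sets of both genes carry the suffix by which Affymetrix marks possible cross-hybridisation, so that each can hold some signal of the other.
ACTA2, the actin of smooth muscle and of activated fibroblasts, read 4.63 and 4.36 in control against 7.05 and 6.81 in ELK3 KD arrays, a difference of 2.43 (SE 0.13, adjusted p = 0.000192). The control values lay in the background range, which limits the size of the difference. The other 2 probe sets of ACTA2 lay in that range in both groups, at 0.03 and -0.24, so its rise rests on 1 probe set that can cross-hybridise with other actins. Of 9 further smooth muscle genes, 0 were called higher and 3 lower by limma, where over all genes 26.0% were called higher and 23.5% lower. The means of the list were 6.26 and 6.14 in control against 5.91 and 5.97 in ELK3 KD arrays. Its largest called differences, between group means, were of SMTN (8.22 to 6.98) and DES (6.72 to 6.39). MYH11, the smooth muscle myosin, was not called, at 6.53 to 6.65.

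Among the proteins that bundle actin filaments, L-plastin fell and T-plastin and fascin rose. LCP1 encodes L-plastin, the plastin of leukocytes that many carcinoma cells also make. It read 11.15 and 10.16 in control against 3.91 and 4.26 in ELK3 KD arrays, a difference of -6.57 (SE 0.34, adjusted p = 0.000167). The ELK3 KD values lay in the background range, and the control arrays were about 1 log2 unit apart at both probe sets, the second of which read 9.33 and 8.35 against 5.17 and 4.96. Of 9 leukocyte markers, 5 were called lower and 1 higher (means of 5.36 and 5.40 in control against 4.67 and 4.73 in ELK3 KD arrays), where over all genes 23.5% were called lower and 26.0% higher. The largest called differences of these markers, between group means, were of DOCK2 (5.47 to 2.81) and LAPTM5 (7.41 to 4.97). Both means of DOCK2 and the ELK3 KD mean of LAPTM5 lay under the background guide. PTPRC, the defining leukocyte marker, was not called, at 2.51 to 2.80 on all arrays.
PLS3 encodes T-plastin, the form of most solid tissues. It read 11.10 and 10.96 in control against 12.72 and 12.77 in ELK3 KD arrays, a difference of 1.72 (SE 0.08, adjusted p = 0.000138), and its other probe set gave 2.50. PLS1, the plastin of intestinal and kidney brush borders, read 9.81 and 9.80 against 9.39 and 9.46, a difference of -0.38 whose call ended without ELK3 KD replicate 1 (adjusted p = 0.0923) or replicate 2 (adjusted p = 0.0613). Its other probe set gave -0.21 and was not called (adjusted p = 0.119). The 3 plastin genes thus differed in direction and size while their arrays within a group stayed close, apart from LCP1 in control cells.
FSCN1 encodes fascin, which packs parallel filaments in filopodia and in the protrusions of invading cells. It read 6.57 and 6.81 in control against 8.86 and 8.93 in ELK3 KD arrays, a difference of 2.21 (SE 0.11, adjusted p = 0.000133), and all 3 of its probe sets were called higher, by 1.52 to 2.21. VIL1, the villin of microvilli, was in the background range at 4.49 to 4.56 on all arrays.
The alpha-actinins, which cross-link filaments at adhesions and along stress fibres, both fell. ACTN1 read 11.38 and 11.40 in control and 9.58 on both ELK3 KD arrays, a difference of -1.81 (SE 0.07, adjusted p = 7.66e-05). ACTN4 read 11.33 and 11.30 against 9.93 and 9.82, a difference of -1.44 (SE 0.08, adjusted p = 0.000184). Of 7 probe sets of ACTN1, 6 were called lower, at -1.81 to -2.10, and the other lay in the background range at 0.03, and all 5 of ACTN4 were called lower.

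**Figure D2:**
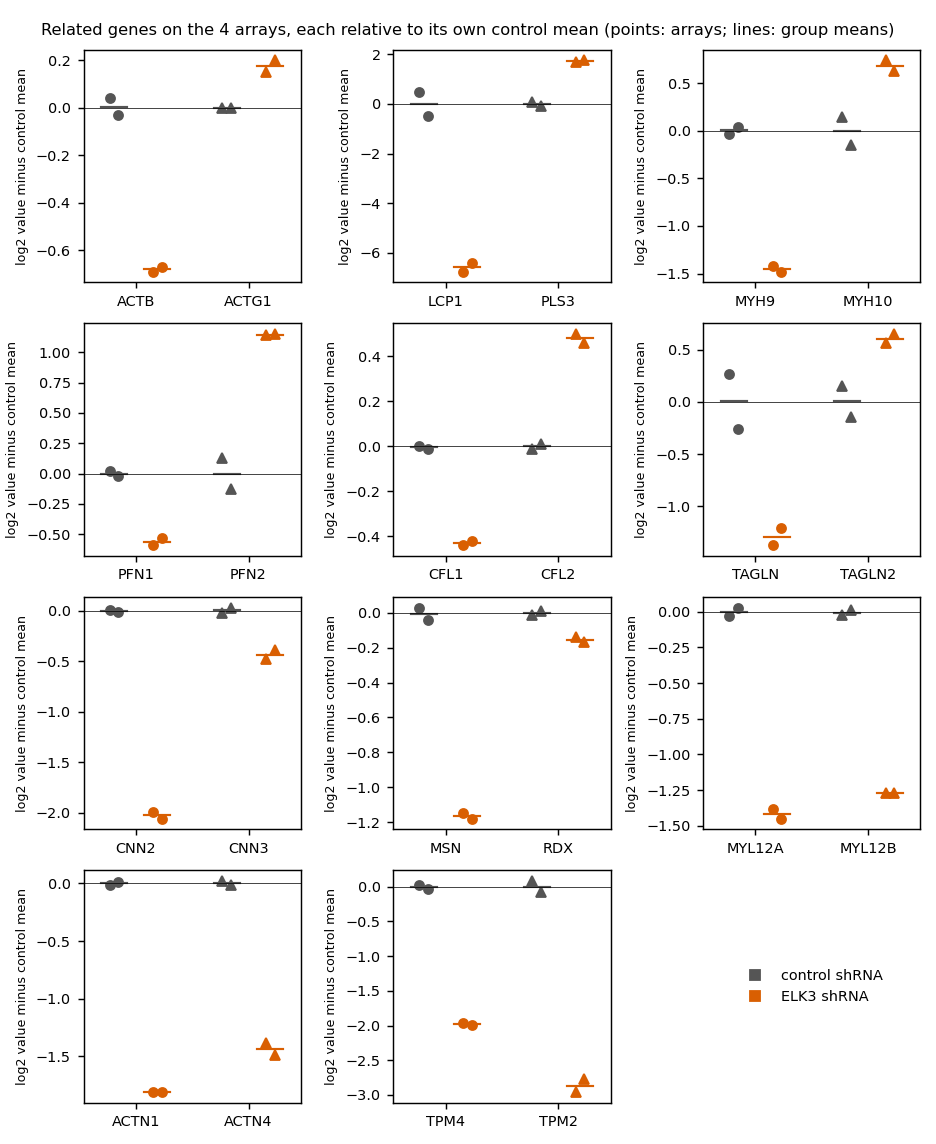
Log2 values of 11 pairs of related genes on each array, minus the gene's own control mean (vertical axis); points are the 2 control shRNA (grey) and 2 ELK3 shRNA (orange) arrays and lines are group means. The pairs were ordered after their values were seen: in the first 6 the genes lie on opposite sides of their control means in ELK3 shRNA cells (LCP1 at -6.57 and PLS3 at 1.72, for one), and in the other 5 both lie below (ACTN1 at -1.81 and ACTN4 at -1.44, for one); the ACTG1 difference of 0.18 and the RDX difference of -0.16 did not pass the test.

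All 3 measured tropomyosins, the coiled-coil proteins that lie along filaments and set which partners may bind, were lower at their brightest probe sets. TPM2 read 7.97 and 7.81 in control against 4.93 and 5.12 in ELK3 KD arrays, a difference of -2.87 (SE 0.11, adjusted p = 7.01e-05), with the ELK3 KD values in the background range. TPM4 read 11.40 and 11.33 against 9.40 and 9.38, a difference of -1.98 (SE 0.07, adjusted p = 6.93e-05), and its 5 probe sets fell by 1.98 to 2.37. Of 4 probe sets of TPM2, 3 were called lower and 2 of the 4 were in the background range in both groups.
TPM1 moved both ways. Its brightest probe set read 10.02 and 10.06 in control against 9.10 and 9.13 in ELK3 KD arrays, a difference of -0.93 (adjusted p = 0.000518). Of its 9 probe sets, 6 were called lower, at -0.35 to -0.93, and 3 were called higher, by 1.33 to 1.77 (adjusted over all 49293 probe sets). One of these 3 read 6.59 and 6.35 in control against 8.13 and 8.22 in ELK3 KD arrays. TPM1 makes many transcripts from alternative promoters, exons and 3′ ends. The annotation used does not tell which of them each probe set reads, so the direction of TPM1 as a whole is not settled: the mean of its 9 probe sets gave 0.06 (adjusted p = 0.507), and the brightest probe set without a cross-hybridisation suffix gave 1.33 (adjusted p = 0.00241).

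Of the 7 genes of non-muscle myosin and its kinase MYLK, 5 were called lower, all of them myosin chains, and MYH10 was called higher. The shares over all genes were 23.5% called lower and 26.0% higher. MYH9, the heavy chain of non-muscle myosin IIA, read 10.67 and 10.74 in control against 9.28 and 9.22 in ELK3 KD arrays, a difference of -1.45 (SE 0.08, adjusted p = 0.000165), and its 4 probe sets fell by 1.32 to 1.45. MYH10, the heavy chain of the IIB form, read 10.56 and 10.26 against 11.15 and 11.04, a difference of 0.69 (SE 0.12, adjusted p = 0.00822) that was also called at all 3 of its probe sets. The call of MYH10 ended without ELK3 KD replicate 1 (adjusted p = 0.0748) or replicate 2 (adjusted p = 0.0516).
The regulatory light chains, whose phosphorylation switches the motor on, fell by similar amounts. MYL9 read 9.28 and 8.97 in control against 7.87 and 7.77 in ELK3 KD arrays, a difference of -1.30 (SE 0.13, adjusted p = 0.00102). MYL12A read 12.31 and 12.37 against 10.96 and 10.89, a difference of -1.42 (SE 0.08, adjusted p = 0.000179). MYL12B read 12.19 and 12.22 against 10.94 on both arrays, a difference of -1.27 (SE 0.07, adjusted p = 0.000196). In none of the 3 genes did the groups overlap. MYL12A and MYL12B are near-identical neighbours, so the split of signal between them is uncertain.
The essential light chain gene MYL6 changed less, from 12.56 and 12.40 to 12.06 and 12.08, a difference of -0.41 (adjusted p = 0.0142) whose call ended without ELK3 KD replicate 1 (adjusted p = 0.102) or replicate 2 (adjusted p = 0.089). MYLK, the kinase that phosphorylates the regulatory light chains, read 7.80 and 7.73 against 7.69 and 7.43, a difference of -0.21 that did not pass the test (adjusted p = 0.185), and 1 of its 3 probe sets was called lower at -0.46.

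In the calponin family, CNN2 and TAGLN fell furthest. CNN2, the calponin of non-muscle cells, read 9.86 and 9.84 in control against 7.86 and 7.79 in ELK3 KD arrays, a difference of -2.02 (SE 0.07, adjusted p = 6.5e-05), and its 9 probe sets were all called lower, at -2.02 to -3.17. TAGLN encodes transgelin (SM22-alpha), an early smooth muscle marker, and read 7.23 and 6.70 against 5.59 and 5.75, a difference of -1.30 (SE 0.19, adjusted p = 0.00407), with all 6 probe sets called lower. The ELK3 KD mean of TAGLN, 5.67, lay just under the background guide of 5.70, which limits the size of the difference. TAGLN2, its relative of non-muscle cells, moved the other way, from 11.17 and 10.88 to 11.58 and 11.67, a difference of 0.60 (adjusted p = 0.0126) with 4 of 5 probe sets called higher and the other in the background range. The call of TAGLN2 ended without ELK3 KD replicate 1 (adjusted p = 0.0725) or replicate 2 (adjusted p = 0.0957).
CNN3, the acidic calponin, fell by 0.44 (adjusted p = 0.00809), and CALD1, which encodes caldesmon, a brake on myosin at the filament, fell by 0.53 (adjusted p = 0.00466). Without ELK3 KD replicate 1 both calls ended (adjusted p = 0.0758 and 0.0521). All 10 probe sets of CALD1 were called lower, at -0.53 to -0.84. CNN1, the calponin of smooth muscle, read 6.45 and 6.31 against 6.64 and 6.40 and did not pass the test (adjusted p = 0.354).

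**Figure D3:**
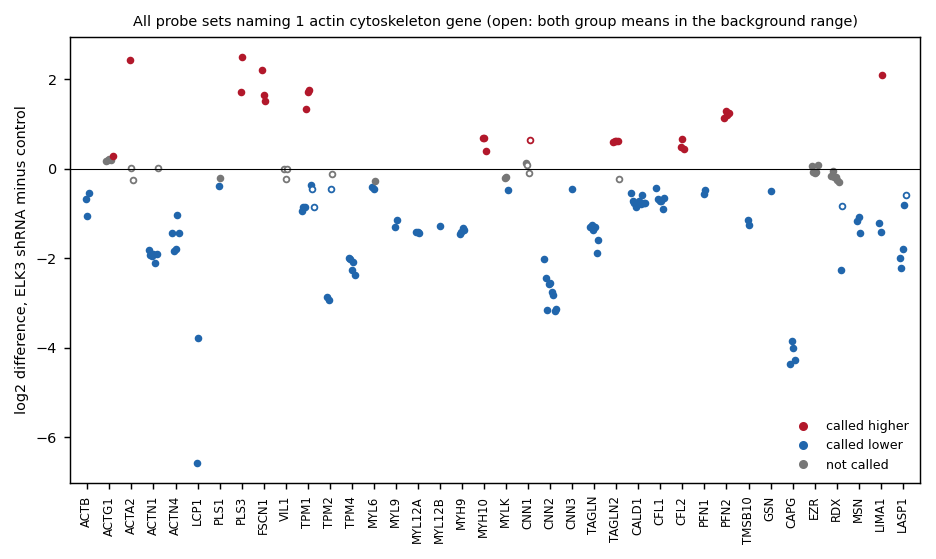
Log2 difference (ELK3 shRNA minus control shRNA, vertical axis) at each of 153 probe sets of 38 actin cytoskeleton genes; each point is 1 probe set, coloured by its call from limma over all 49293 probe sets, and open points have both group means under the background guide of 5.70. TPM1 and LIMA1 have probe sets called in both directions, while the 9 of CNN2, the 10 of CALD1 and the 4 of CAPG lie on 1 side.

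Counted singly, 97 of the 153 probe sets were called lower, 26 higher and 30 did not pass the test, where over all probe sets 24.0% were called lower and 24.3% higher. For 24 of the 38 genes every probe set was called and in 1 direction, a share that was not counted over all genes. Among the 24 are MYL12B, CNN3 and GSN, which have only 1 probe set each and so cannot disagree. TPM1 and LIMA1 were the 2 genes with calls in both directions.

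The genes that cap, sever and recycle filaments had 5 of 7 members called lower and 2 higher, where over all genes the shares were 23.5% and 26.0%. CAPG encodes a capping protein of the gelsolin family that blocks the growing end of filaments in motile cells. It read 11.51 and 11.28 in control against 7.02 and 7.03 in ELK3 KD arrays, a difference of -4.37 (SE 0.10, adjusted p = 2.36e-05), with its 4 probe sets at -3.84 to -4.37 and both group means above the background guide. TMSB10, a thymosin that holds actin monomers in reserve, read 13.57 and 13.51 against 12.42 and 12.36, a difference of -1.15 (SE 0.08, adjusted p = 0.000313). GSN, the severing protein gelsolin, fell by 0.49 (adjusted p = 0.02), a call that ended without ELK3 KD replicate 2 (adjusted p = 0.0974), control replicate 1 (adjusted p = 0.0756) or control replicate 2 (adjusted p = 0.0986).
The profilins, which hand monomers to growing ends, differed in direction. PFN1 read 12.08 and 12.04 in control against 11.47 and 11.53 in ELK3 KD arrays, a difference of -0.56 (adjusted p = 0.00279). PFN2, the form best known from neurons, read 10.21 and 9.95 against 11.22 and 11.23, a difference of 1.15 (SE 0.11, adjusted p = 0.000896), and all 4 of its probe sets were called higher, by 1.15 to 1.29.
The cofilins, which sever old filaments, did so as well. CFL1, the non-muscle form, read 12.68 and 12.67 against 12.24 and 12.26, a difference of -0.43 (adjusted p = 0.00601) at the brightest and down to -0.89 at the other of its 6 probe sets, all called lower. CFL2, known from muscle, read 9.90 and 9.92 against 10.41 and 10.37, a difference of 0.48 (adjusted p = 0.00441), with all 3 probe sets called higher. Without ELK3 KD replicate 1 the calls of CFL1 and CFL2 ended (adjusted p = 0.0605 and 0.0517), and that of CFL1 also ended without replicate 2 (adjusted p = 0.0561).

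Of the ERM proteins, which tie actin to the plasma membrane, moesin fell and ezrin and radixin did not pass the test. MSN read 10.89 and 10.82 in control against 9.71 and 9.68 in ELK3 KD arrays, a difference of -1.16 (SE 0.08, adjusted p = 0.000296). EZR read 10.08 and 10.28 against 10.26 on both arrays (adjusted p = 0.551), and none of its 5 probe sets, at -0.10 to 0.09, was called. RDX read 10.68 and 10.70 against 10.55 and 10.52, a difference of -0.16 (adjusted p = 0.132), but of its 8 probe sets 2 were called lower, 1 of which read 7.05 and 7.13 in control against 4.93 and 4.76 in ELK3 KD arrays.
Both LIM domain proteins fell at their brightest probe sets. LASP1, an actin-binding protein of adhesions and the leading edge, read 12.26 and 12.23 in control against 10.30 and 10.19 in ELK3 KD arrays, which made it 3.99-fold lower (log2 SE 0.08, adjusted p = 7.84e-05), with all 5 probe sets called lower. LIMA1 (EPLIN), which stabilises filaments at cell junctions, read 9.71 and 9.65 against 8.49 and 8.45, a difference of -1.21 (SE 0.07, adjusted p = 0.00025). A second probe set of LIMA1 gave -1.40, and the third rose from 3.89 and 3.62 to 5.84 on both arrays, from the background range. With the mean of its 3 probe sets the call of LIMA1 ended (-0.17, adjusted p = 0.107).

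More genes were called lower than higher in each of 4 further lists of actin assembly and SRF control, which hold none of the 41 genes. Over all genes 23.5% were called lower and 26.0% higher. Among formins and among turnover genes the share called higher was not below that of all genes. Of 16 measured genes of the Arp2/3 complex, which starts branched filaments, and of the WAVE proteins that switch it on, 10 were called lower and 3 higher. The complex subunit gene ARPC5L read 11.11 and 11.52 in control against 9.75 and 9.86 in ELK3 KD arrays (-1.51, adjusted p = 0.00118), and ARPC1B read 10.62 and 10.61 against 9.50 and 9.48 (-1.13, adjusted p = 0.000269). Of 18 formins, Ena/VASP proteins and other genes of straight filaments, 10 were called lower and 6 higher, with the largest called differences at FMN1 (-3.41, adjusted p = 0.000125) and FMNL1 (-1.92, adjusted p = 0.000337), both formins. FMN1 was in the background range in ELK3 KD arrays, and of 17 probe sets of FMNL1 7 were called lower and 1 higher. Of 22 further genes of turnover and capping, 11 were lower and 6 higher. TMSB4X, the thymosin related to TMSB10, read 12.46 and 12.31 against 9.81 and 9.89 (-2.54, adjusted p = 6.01e-05), and TMOD2, a cap of the slow-growing end known from neurons, read 4.60 and 4.85 against 6.65 and 6.57 (1.89, adjusted p = 0.000213), with its control values in the background range. Without either ELK3 KD replicate this list had 7 genes called lower and 3 higher.
Of 18 genes of SRF, its MRTF coactivators, the ELK factors ELK1 and ELK4 and genes listed as targets, 12 were lower and 2 higher. Their median log2 difference was -0.70. ELK1 was among the 12 (-0.43), and ELK4 was not called. ANKRD1, a muscle ankyrin repeat protein, read 10.05 and 9.73 in control against 2.88 and 3.18 in ELK3 KD arrays (-6.86, adjusted p = 2.36e-05), the latter in the background range, which limits the size of the difference, and MICAL2, an enzyme that oxidises actin, read 10.91 and 10.82 against 7.87 and 7.91 (-2.97, adjusted p = 2.89e-05). SRF and MRTFB, looked up after the values were seen, had differences of -0.98 (adjusted p = 0.00147) and 1.22 (adjusted p = 0.00097, 1 of 3 probe sets called), and MRTFA read 6.47 and 6.53 against 6.55 and 6.69 (adjusted p = 0.316).

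**Figure D4:**
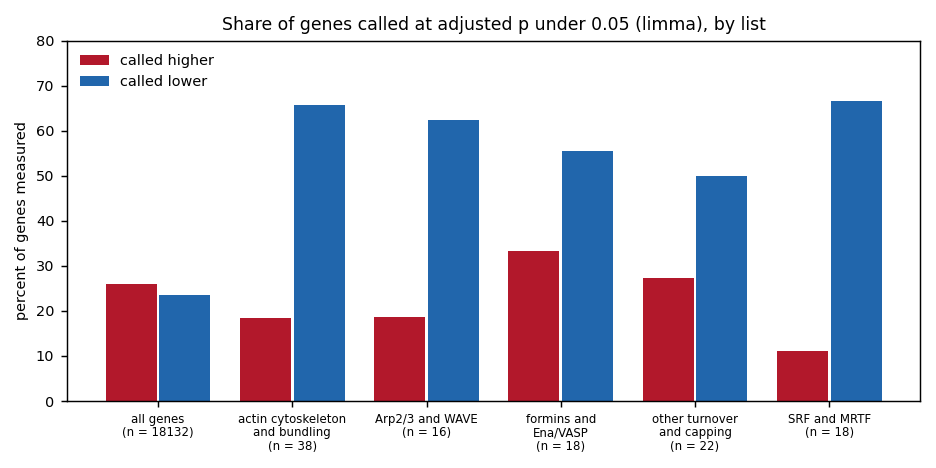
Percent of measured genes (vertical axis) called higher or lower in ELK3 shRNA cells at an adjusted p under 0.05 from limma, for all 18132 genes, the 38 actin cytoskeleton and bundling genes and 4 further actin lists; n is the number of genes measured. Over all genes 26.0% were called higher and 23.5% lower, and in each actin list the share called lower was the larger.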

How the data were processed

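RNA of 4 samples was hybridised to 1 Affymetrix PrimeView array each. The deposited log2 intensities had been made by the authors with RMA (background correction, quantile normalization and probe set summary) in Affymetrix Expression Console, of a version not given in the sources used here. The study's methods name an Illumina bead array, but the probe set names are those of PrimeView. RMA compresses differences of dim probe sets, and 4 arrays limit the precision.

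The columns were matched to the samples by title. Of 49395 probe sets, 44988 name 1 gene, 1832 several, 2473 none, and 102 are array controls. Of those that name 1 gene, 44961 matched a RefSeq gene identifier, and no symbol needed a change. For each of 18132 genes the brightest probe set, by its mean over all 4 arrays, was used. Groups were compared with limma 3.58.1 (lmFit and eBayes, no covariates) in R 4.3.3, with Benjamini-Hochberg adjustment over all genes or over all 49293 probe sets other than controls, and the fit was tested on simulated data. Plots were made in Python 3.11.15 with matplotlib 3.10.9.

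The genes of the list and of the other lists were chosen with earlier results of these data known. Values of every array are given for ELK3, ACTB, ACTG1 and called genes of the list with an absolute log2 difference of at least 1, and some other genes of the list were added after their values were seen. The result of 1 further list is not reported here. Of each other list reported, the 2 called genes with the largest absolute difference are named. Some further genes of these lists, called or not, are given beside them. Alternatives were a filter on dim genes, the mean of a gene's probe sets, leaving out probe sets with the suffixes _x_at and _s_at, centring, a repeated quantile normalization, a trended and robust prior, a stricter threshold, a block and leaving out each array.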

Additional observations from a re-analysis of the deposited data

How the results depend on the processing

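Over the log2 differences of the 38 actin genes and all settings but the stricter threshold, which was run for counts over all genes and over the list, there were 406 comparisons: 371 kept direction and side of the threshold, 19 lost the call, 5 gained it (ACTG1 with the dim-gene filter, the mean or the trended prior, RDX with the mean or that prior), and 11 changed sign. Sign changes were seen for VIL1 (-0.07 with the mean of probe sets, -0.04 after centring, -0.03 after quantile normalization, -0.03 to 0.04 with 1 array left out), TPM1 (0.06 with the mean, 1.33 without _x_at and _s_at probe sets), CNN1 (-0.08 without those) and EZR (-0.01 with the mean, -0.06 without those, -0.02 to 0.17 with 1 array left out). The cause was not tested. Without _x_at and _s_at probe sets, 10 probe sets were called higher and 41 lower of those left, and the median difference was -0.43. In that setting 1 gene was more than 4-fold higher, PLS3 (2.50), with FSCN1 at 1.52 and ACTA2 at 0.03. With the mean the only such gene was again PLS3 (2.11), with FSCN1 at 1.79 and ACTA2 at 0.74. With the dim-gene filter it was FSCN1 (2.21). The dim-gene filter, which tests fewer genes, left 3 genes called higher among formins and 3 in turnover; with the mean, and without _x_at and _s_at probe sets, 1 was called higher in the SRF list. At an adjusted p under 0.01, 2716 genes were lower. With 1 array left out, 4 to 7 genes of the actin list were called higher (of all genes 3080 to 4388 higher and 2430 to 3976 lower), 17 to 25 of its probe sets higher (of all probe sets 7387 to 10917 higher and 6592 to 10408 lower), and in turnover 3 to 6 higher and 7 to 10 lower.

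Same-numbered arrays of the groups did not deviate together over genes (correlation 0.01). With 2 arrays a group this cannot show whether they shared a culture or a batch, which the labels do not give. With the replicate number as a replicate block, 7 genes of the list were called higher and 25 lower, and 3785 of all genes lower. Calls near background depend on RMA, and 2 arrays a group leave differences under about 0.7 open to the loss of 1 array.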
